A study of Mus musculus with 2 samples.

Results

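Hes1 is a basic helix-loop-helix repressor and the textbook target of Notch signalling. In that pathway a ligand on a neighbouring cell leads to cleavage of the receptor (Notch1 and Notch2 among others), and the freed intracellular domain joins the DNA-binding protein Rbpj to switch on genes such as Hes1, Dtx1 and Nrarp. In lymphoid development the pathway is known for directing progenitors away from the B lineage and towards T cells, and for its use by innate lymphoid cells (ILC). Hes1 can also be induced by other signals.

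The values below describe 5 genes, Hes1, Notch1, Notch2, Rbpj and Dtx1, of the 31053 genes listed in each of 2 single-cell libraries of mouse bone marrow. All 5 were found by symbol in both libraries. The genes were selected on the measured difference of Hes1 between these 2 libraries, so the levels of the 5 genes are a description that carries no test. The WT library came from wild-type (LCR1+/+) and the KO library from LCR1-/- (LCR1 knock-out) C57BL/6 mice, 8 to 12 weeks old, and each pooled animals with as many males as females. Both were sorted as viable, CD45+, lineage-negative cells with CD127, the interleukin-7 receptor alpha chain, at a purity above 90%. The purpose given for the comparison is how group 2 ILC (ILC2) develop when LCR1 is deleted. LCR1 is an element whose position the labels do not give, so no transcript checks the genotypes.

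Cells with at least 1000 genes and at most 10% mitochondrial unique molecular identifiers (UMIs) were used: 3290 of 20293 WT barcodes, with a median of 5371.5 UMIs, and 4343 of 8476 KO barcodes, with a median of 7261. Each genotype has 1 library, so no difference has a replicate check and no test was possible. Levels are UMIs of a gene scaled to the UMI total of its class (CPM), with exact Poisson intervals, and folds have exact intervals given both counts. All intervals are at 95% and cover counting error only. A gene counted as measured in a class once the libraries together gave 50 UMIs and one of them reached 20 CPM. It passed the size rule when the fold was 1.5 or larger and its interval did not contain 1. The 2 libraries share 75 barcode sequences, 5 of them among common lymphoid progenitor-like cells of each library.

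Each cell was put in the class of which it held the largest share of marker genes with a UMI, with at least 2 such markers and ties left out, a rule set after the values were seen. Common lymphoid progenitor-like cells, 915 in WT and 1287 in KO, had Cd34, Dntt and Flt3 among their 10 leading genes in both libraries, and their Il7r and Ptprc levels (the genes of CD127 and CD45) were 431 and 260 CPM in WT and 395 and 243 CPM in KO. The other 6 classes compared were ILC precursor-like cells (198 and 712), ILC2-like cells (856 and 739), natural killer (NK) or ILC1-like cells (108 and 405), CD3-expressing cells (99 and 241), plasmacytoid dendritic-like cells (131 and 82) and basophil or mast-like cells (386 and 203).

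Hes1 (ENSMUSG00000022528) lies on the plus strand at chr16:30064384-30067796 in GRCm38, the assembly also called mm10. Notch1 (ENSMUSG00000026923) lies at chr2:26457903-26516663 on the minus strand, Notch2 (ENSMUSG00000027878) at chr3:98013527-98150361 on the plus strand, Rbpj (ENSMUSG00000039191) at chr5:53466152-53657362 on the plus strand and Dtx1 (ENSMUSG00000029603) at chr5:120680202-120711927 on the minus strand. All 5 are protein-coding. Of the 5, 4 have a promoter (250 bases before and 50 after a start) in the RefSeq table of GRCm38.p6, which does not list Hes1. Each was searched on both strands for TGGGAA, the core of the Rbpj site, and the promoters of some genes described beside them also for TGACGTCA, the cyclic AMP response element, and for its half-site TGACG, which lies within the full element. The motifs were chosen with results known. Rbpj has 2 matches to TGGGAA before the first of its starts, beginning 149 and 65 bases upstream. The window of its other start overlaps the first, and its 1 match is the same as the one at 65 bases. Hes5 has 2 matches, the immediate early genes Jun and Dusp2 have 1 each, and Notch1, Notch2, Dtx1 and Nrarp have none in these windows. Of all 32851 promoters 25.56% hold TGGGAA. Nr4a1 has 4 matches to the half-site, Fos has 2, Junb, Dusp2 and Nrarp have 1 each, and Jun and Socs3 have none, against 20.81% of promoters with any. None of the promoters searched held the full element, found in 1.79% of all. Of the windows with matches 3 are shown 5′ to 3′ on the gene's strand, all plus: that of a member with a promoter and those of 2 immediate early genes that the results below return to. Capitals mark TGGGAA or its reverse complement in Rbpj (chr5:53590096-53590395) and the half-site or its reverse complement in Nr4a1 (chr15:101266596-101266895) and Fos (chr12:85473640-85473939). A match describes letters and is not evidence of binding.
Rbpj: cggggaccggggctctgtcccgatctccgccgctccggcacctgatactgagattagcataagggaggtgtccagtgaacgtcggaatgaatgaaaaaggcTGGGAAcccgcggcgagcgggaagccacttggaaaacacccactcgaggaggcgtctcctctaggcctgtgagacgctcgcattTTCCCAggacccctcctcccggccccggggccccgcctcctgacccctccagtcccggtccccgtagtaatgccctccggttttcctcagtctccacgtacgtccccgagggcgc
Nr4a1: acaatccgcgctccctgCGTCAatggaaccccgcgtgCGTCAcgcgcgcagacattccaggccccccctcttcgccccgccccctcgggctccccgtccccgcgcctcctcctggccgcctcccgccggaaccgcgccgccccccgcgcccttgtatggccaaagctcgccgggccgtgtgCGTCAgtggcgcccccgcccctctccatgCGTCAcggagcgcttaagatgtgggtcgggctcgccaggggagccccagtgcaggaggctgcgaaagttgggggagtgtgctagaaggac
Fos: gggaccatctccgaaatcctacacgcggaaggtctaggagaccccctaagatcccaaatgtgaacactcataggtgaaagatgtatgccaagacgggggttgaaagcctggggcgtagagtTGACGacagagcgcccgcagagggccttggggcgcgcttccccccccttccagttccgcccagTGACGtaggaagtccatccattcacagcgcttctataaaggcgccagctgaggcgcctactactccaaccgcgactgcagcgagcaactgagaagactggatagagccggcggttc

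In common lymphoid progenitor-like cells Hes1 was at 16.5 CPM in the WT library (14.2 to 19.1, 182 UMIs) and at 132.9 CPM in the KO library (127.8 to 138.1, 2599 UMIs), 8.06-fold higher in KO (6.93 to 9.41). No other of the 6392 genes measured there had a larger fold. Of these genes 1.28% passed the size rule as higher in KO and 1.08% as lower, and since Hes1 was chosen for this difference nothing is read from that comparison. The KO library also had more cells with a Hes1 UMI: 9.07% of WT and 36.0% of KO cells, or 3.25% (2.15 to 4.69) and 16.3% (14.3 to 18.5) once every cell was thinned to 2000 UMIs, which left out 84 WT cells and no KO cell. Hes1 was unevenly spread among the KO cells. Of 1287 cells 824 had no Hes1 UMI, 172 had at least 5 and 84 at least 10, with a maximum of 58, and the 10% of cells with the most Hes1 held 70.6% of the Hes1 UMIs. In WT 832 of 915 cells had none, 6 had at least 5, and the maximum was 15.

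Hes1 was also higher in KO in other classes, by less. ILC precursor-like cells had the highest Hes1 of the compared classes in both libraries, 142.2 CPM in WT (127.2 to 158.5) and 203.1 in KO (192.4 to 214.3), a 1.43-fold difference (1.26 to 1.62) that did not pass the size rule, which 2.57% of genes passed as higher and 2.03% as lower. ILC2-like cells followed in WT with 58.0 CPM (51.7 to 64.9) and had 111.8 in KO (101.2 to 123.3), 1.93-fold higher (1.66 to 2.24), against 2.09% of genes higher and 4.29% lower. Plasmacytoid dendritic-like cells were at 25.1 CPM in WT (16.5 to 36.5) and 74.6 in KO (57.3 to 95.4), a 2.97-fold difference (1.86 to 4.85), with 3.85% of genes higher and 3.37% lower. CD3-expressing cells had 11.6 CPM in WT (5.01 to 22.9), from 8 UMIs, and 47.4 in KO (37.0 to 59.9), 4.08-fold higher (1.96 to 9.83), with 2.89% of genes higher and 4.7% lower. NK or ILC1-like cells had 15.9 CPM in WT (8.22 to 27.8), from 12 UMIs, and 30.9 in KO (24.4 to 38.6), 1.94-fold higher (1.05 to 3.92), with 3.23% of genes higher and 2.54% lower. Basophil or mast-like cells had the lowest level, 4.92 CPM in WT and 8.59 in KO, too few UMIs to enter the rule, which 2.22% of genes passed there as higher and 4.28% as lower.

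**Figure D1:**
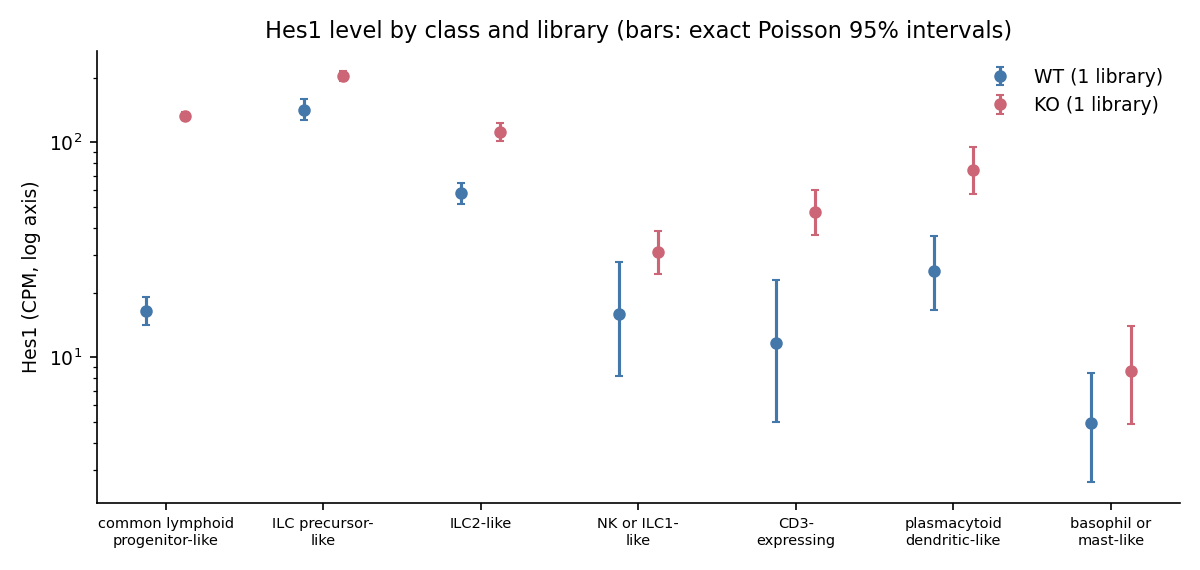
Hes1 level (CPM, log axis) in 7 marker-defined classes, WT in blue and KO in red, with exact Poisson 95% intervals. The KO point is above the WT point in each class, and the widest gap, 16.5 against 132.9 CPM, is in common lymphoid progenitor-like cells.

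In order of level, the WT classes ran from ILC precursor-like through ILC2-like and plasmacytoid dendritic-like cells to common lymphoid progenitor-like, NK or ILC1-like, CD3-expressing and then basophil or mast-like cells. The Poisson intervals of neighbours overlapped from the plasmacytoid dendritic-like class downwards. In KO the common lymphoid progenitor-like class stood second, above ILC2-like cells, and its Poisson interval overlapped neither neighbour. By the share of thinned KO cells with a Hes1 UMI, its interval (14.3 to 18.5%) overlapped that of ILC precursor-like cells (17.1 to 23.1%). Early B-like cells, with 64 WT and only 47 KO cells, were left out of the comparison; their Hes1 values were 40.1 CPM in WT (25.1 to 60.8) and 102.2 in KO (77.8 to 131.8). RNA free in the droplets can give UMIs to cells that do not express a gene. Basophil or mast-like cells, the compared class with the lowest Hes1 in these data, served as a low reference. That other classes lie above it is therefore partly given by this choice. Barcodes left out by the filters carried Hes1 at 37.5 CPM in WT and 70.5 in KO, and what they hold was not tested. The WT value is above the 16.5 CPM of WT progenitor-like cells, and the KO value below the 132.9 CPM of KO ones. After thinning 1.49% of the reference cells in WT (median 3414 UMIs) and 1.51% in KO (median 6599) had a Hes1 UMI. Their intervals ran from 0.485 to 3.44% in WT and from 0.312 to 4.34% in KO. The thinned shares of ILC precursor-like cells (16.9% and 20.0%) and ILC2-like cells (7.02% and 11.7%) lay above these intervals in both libraries, as did that of the KO progenitor-like cells. For the WT progenitor-like cells (3.25%), NK or ILC1-like cells (1.92% and 3.23%), CD3-expressing cells (1.04% and 4.98%) and plasmacytoid dendritic-like cells (3.36% and 8.54%) the intervals of the thinned shares overlapped those of the reference. By level the reference was lower than some of them: its Poisson interval ran from 2.62 to 8.42 CPM in WT and from 4.91 to 13.9 CPM in KO, below those of the WT progenitor-like cells, of the plasmacytoid dendritic-like cells of both libraries and of the KO NK or ILC1-like and CD3-expressing cells.

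The common lymphoid progenitor-like classes of the 2 libraries differed in more than Hes1. Their median depth was 6507 UMIs in WT and 13898 in KO, and 397 WT and 28 KO cells had fewer than 4000. Hes1 was compared within bins of depth, chosen after the values were seen. From 4000 to 8000 UMIs it was at 31.0 CPM in WT and 129.3 in KO, 4.17-fold higher (2.47 to 7.53). From 8000 to 16000 UMIs the values were 34.7 and 234.9 CPM, 6.76-fold (5.18 to 8.99), and from 16000 UMIs 10.4 and 66.2 CPM, 6.38-fold (5.08 to 8.12). Below 4000 UMIs the KO cells gave only 3 Hes1 UMIs, and 28.1 against 36.2 CPM differed by less than counting error (1.29-fold, 0.251 to 4.18). The cells of the class also lay in different joint clusters of both libraries. In WT 155 of the 915 cells, and in KO 507 of the 1287, were in the cluster with progenitor markers, which gave 78 Hes1 UMIs in WT and 1662 in KO. Hes1 was at 34.2 CPM in WT and 258.5 in KO there, 7.57-fold higher (6.03 to 9.62). An unnamed cluster took in 284 WT cells but 6 KO cells of the class, and the WT ones had a median depth of 2359 and 9 Hes1 UMIs in all. Over the 7 clusters with at least 10 cells of the class in each library the folds ran from 2.55 (1.63 to 4.15) in the plasmacytoid dendritic cluster and 2.70 (1.61 to 4.76) in the early B cluster to 16.9 (5.67 to 83.3) in the ILC precursor cluster, where WT had 3 Hes1 UMIs. Mitochondrial shares were alike, with medians of 4.83% and 4.99%, and Hes1 was 4.85 to 10.0-fold higher in KO in the 3 ranges of that share.

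Cycling was less frequent in KO, where 67.6% of the progenitor-like cells had a UMI of a cycling marker against 81.0% in WT (39.5% and 59.8% after thinning). Among cells without a cycling marker Hes1 was at 44.4 CPM in WT and 239.9 in KO, 5.40-fold higher (4.17 to 7.10). Among cells with one it was at 12.5 and 101.2 CPM, 8.08-fold (6.71 to 9.80). The WT cells of these groups differed in depth, with medians of 4533.5 and 7189 UMIs, and the order of the folds turned when the marker was read from thinned cells. Hes1 was then at 20.3 CPM in WT (16.3 to 24.9) and 194.1 in KO without a marker, 9.57-fold higher (7.74 to 12.0). With a marker the values were 13.5 CPM in WT (10.8 to 16.7) and 69.8 in KO, 5.17-fold (4.13 to 6.54). The WT intervals of the thinned groups overlapped, so no order of the WT groups is read from them. Hes1 was also higher in cells with Ly6d, a surface marker of B-biased lymphoid progenitors, at 20.9 CPM in WT and 177.1 in KO, than in cells without it, at 9.70 and 75.2 CPM. The fold between libraries was 8.48 (7.14 to 10.1) with and 7.75 (5.67 to 10.9) without Ly6d.

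Ebf1, a transcription factor that sets B cell identity, moved with Hes1 in the same way, in a split chosen after its values were seen. Hes1 stood at 62.9 CPM in WT (48.4 to 80.5) and 278.5 in KO (260.3 to 297.5) in cells with an Ebf1 UMI after thinning, 4.42-fold higher in KO (3.42 to 5.81). In cells without one it stood at 11.5 (9.52 to 13.9) and 105.0 CPM (100.1 to 110.1), 9.10-fold (7.52 to 11.1). The early B list itself summed to 133 CPM in WT and 269 in KO, with 7 of its 8 markers higher in KO. Granulocyte markers summed to 256 and 180 CPM with 8 of 10 lower in KO, basophil and mast cell markers to 154 and 74.4 CPM with 6 of 6 lower, and erythroid markers to 59.8 and 44.5 CPM with 8 of 8 lower. Plasma cell markers summed to 193 and 147 CPM with 4 of 6 lower, ILC3 markers to 31.2 and 26.9 CPM, and the stromal list to 146 and 153 CPM, while Col1a1, Col3a1 and Cxcl12 of the stromal list were at 0 in both. The part of depth, cycling, B lineage content and these other markers in the Hes1 difference was not tested.

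The receptors and the DNA-binding partner did not share the pattern of Hes1. In common lymphoid progenitor-like cells Notch1 was at 195.8 CPM in WT (187.7 to 204.3) and 223.5 in KO (216.9 to 230.2), 1.14-fold higher (1.08 to 1.20), rank 585 of 6392 by fold. Notch2 was at 39.6 CPM in WT (36.0 to 43.5) and 31.5 in KO (29.1 to 34.1), 1.26-fold lower in KO (1.11 to 1.42). Rbpj was at 69.1 CPM in WT (64.3 to 74.2) and 71.3 in KO (67.6 to 75.1), a ratio of 1.03 (0.943 to 1.13) whose interval leaves out a change as large as the size rule. Dtx1, an E3 ubiquitin ligase and Notch target, gave 4 UMIs in WT and 6 in KO, which is too few to compare. Of these 4 genes Notch1 and Notch2 had libraries whose Poisson intervals did not overlap, and all 3 measured ones stayed within 1.5-fold. With every cell thinned, however, Notch2 was at 0.413 of its WT level in KO (0.302 to 0.561), with cells weighted equally at 0.499 of it, and in cells with at least 2000 genes at 0.953.

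**Figure D2:**
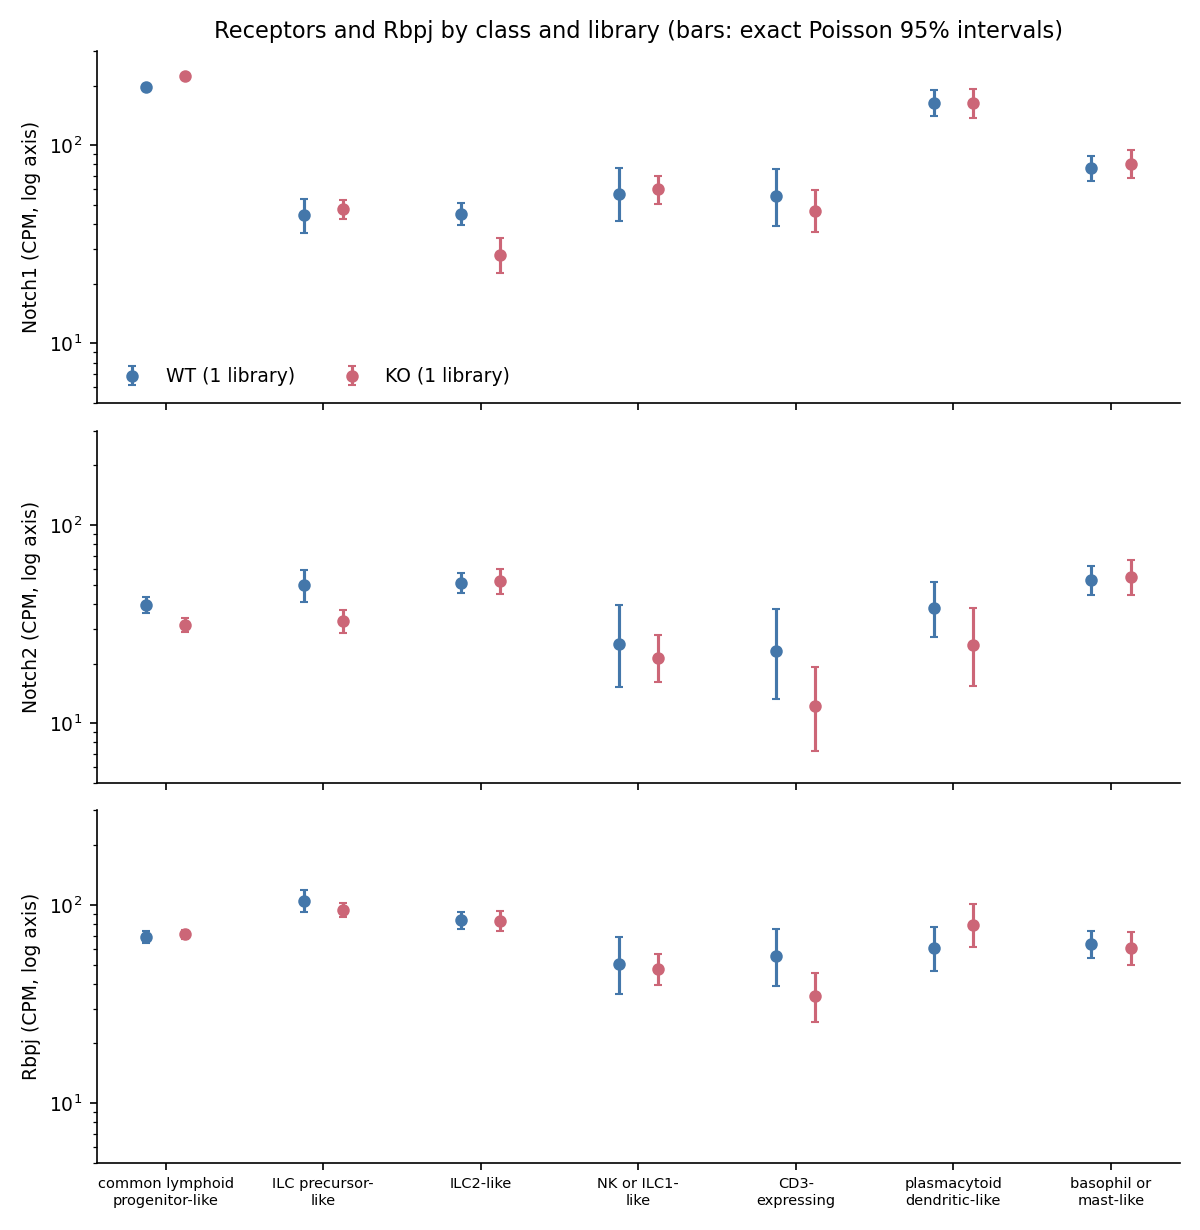
Notch1, Notch2 and Rbpj levels (CPM, log axis) in the same 7 classes, WT in blue and KO in red, with exact Poisson 95% intervals. The points of both libraries lie close together in most classes, and Notch1 is highest in common lymphoid progenitor-like and plasmacytoid dendritic-like cells.

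Across the 7 classes, 26 of the 35 pairs of a member and a class were measured, 5 passed the size rule as higher in KO, all of them Hes1, and 3 passed as lower. With every cell thinned, Hes1 passed as higher in progenitor-like (7.98-fold) and ILC2-like cells (1.89-fold, 1.45 to 2.45) only, and the other 3 classes had too few UMIs to be measured. In cells without a thinned Fos UMI it passed in progenitor-like cells alone. Notch2 was lower in ILC precursor-like cells, at 49.6 CPM in WT (40.9 to 59.6) and 32.8 in KO (28.6 to 37.5), a 1.51-fold difference (1.19 to 1.91). Notch1 was lower in ILC2-like cells, at 45.2 CPM in WT (39.7 to 51.4) and 28.0 in KO (22.8 to 34.0), 1.62-fold (1.28 to 2.06). A single WT cell gave 36 of these Notch1 UMIs, against a maximum of 3 in KO. Without the cell with the most UMIs in each library the levels were 38.8 and 27.3 CPM, 1.42-fold (1.11 to 1.83), which did not pass. Rbpj was lower in CD3-expressing cells, at 55.2 CPM in WT and 34.5 in KO, 1.60-fold (1.02 to 2.48), from 38 and 51 UMIs, and did not pass without the top cell of each library (1.53-fold, 0.949 to 2.43). None of these 3 passed in cells with at most 5% mitochondrial UMIs. Notch1 was highest in common lymphoid progenitor-like cells and next in plasmacytoid dendritic-like cells (163.6 CPM in WT and 163.3 in KO), and stood between 28.0 and 80.5 CPM elsewhere. Rbpj was highest in ILC precursor-like cells, at 104.8 CPM in WT (92.0 to 118.9) and 94.3 in KO (87.0 to 102.0). Notch2 lay between 12.2 and 54.7 CPM over all classes and libraries. Dtx1 had the most UMIs in NK or ILC1-like cells (4 and 19) and CD3-expressing cells (17 and 16, or 24.7 and 10.8 CPM), was at 0 in plasmacytoid dendritic-like cells of both libraries, and was below the measuring limit in every class. The limit of 3 UMIs that a count of 0 allows, which is not the Poisson interval used elsewhere, stands at 2.79 CPM in WT and 3.55 in KO for these cells.

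The wider pathway was described in common lymphoid progenitor-like cells from 74 genes sorted by role, of which 39 were measured. Their median log2 ratio of KO over WT, taken with 5 CPM added, was 0.0016 against -0.05 for all measured genes, and of the 38 other than Hes1, 1 passed the size rule as higher (Bcl11b) and 1 as lower (Gata3), against the 1.28% and 1.08% given above. None of the 6 ligands was measured. Jag2 had 57 and 114 UMIs, Dll1 3 and 28, Dll4 0 and 3, and Dll3 1 and 0. The class held 11034546 UMIs in WT and 19562308 in KO, so a like level gives more UMIs in KO. Scaled to these totals Dll1 was at 0.272 and 1.43 CPM, 5.26-fold higher in KO (1.63 to 27.1). Dlk1 was lower in KO, with a ratio of 0.515 (0.271 to 0.973), and Jag2 had a ratio of 1.13 (0.814 to 1.58). Of the 4 receptors Notch1 and Notch2 were measured, while Notch3 had 5 and 7 UMIs and Notch4 36 and 43 (3.26 and 2.20 CPM). Mfng, a glycosyltransferase that modifies Notch, was 1.16-fold higher in KO (44.5 and 51.6 CPM), and Pofut1, which adds fucose to Notch, had a ratio of 0.972. Of the cleavage machinery 6 of 10 genes were measured and none passed. Adam10, the sheddase that makes the first ligand-dependent cut, was 1.15-fold lower in KO (54.2 and 47.2 CPM).

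The nuclear partners differed as little. Maml3, a coactivator of the Rbpj complex, had 321.8 CPM in WT and 354.4 in KO (1.10-fold higher), and Ep300, a histone acetyltransferase, 83.9 and 73.6 CPM (1.14-fold lower). All 12 measured corepressors of 14 stayed below 1.5-fold, the widest being Cir1, which bridges Rbpj to repressors, at 106.9 and 131.6 CPM (1.23-fold higher), and Tle4, a Groucho-family corepressor used by Hes proteins, at 62.9 and 75.3 CPM (1.20-fold higher). Of 15 genes of turnover and inhibition 7 were measured, and the widest were Dtx3 at 25.7 and 34.5 CPM (1.34-fold higher) and the ubiquitin ligase Nedd4 at 141.3 and 122.2 CPM (1.16-fold lower).

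Targets of the pathway were mixed. Of 17 genes 6 were measured. Bcl11b, a T cell and ILC2 commitment factor, was 1.92-fold higher in KO (1.57 to 2.37) at 11.3 CPM in WT and 21.8 in KO. Cdkn1a, the cell cycle inhibitor p21, was at 56.0 and 82.0 CPM, 1.46-fold higher (1.33 to 1.61) and below the size rule, and Gata3, a T cell and ILC2 factor, was 1.55-fold lower (1.33 to 1.79) at 30.9 and 20.0 CPM. Myc had a ratio of 0.946. Targets that are known to respond most directly to Notch were scarce. Nrarp, a feedback inhibitor, had 23 UMIs in WT and 62 in KO (2.08 and 3.17 CPM), a ratio of 1.52 (0.929 to 2.57). Hes5 had 76 and 112 (6.89 and 5.73 CPM), a ratio of 0.831 (0.616 to 1.13). Hes7 had 13 and 9 UMIs (1.18 and 0.460 CPM), a ratio of 0.391 (0.147 to 0.988). Hey1 had 2 and 4 UMIs, Hey2 0 and 12, and Heyl 0 and 0. With no WT UMI the Hey2 ratio has no value, and its interval began at 1.57. Of the other unmeasured targets Il2ra had 107 and 71 UMIs (9.70 and 3.63 CPM), a ratio of 0.374 (0.273 to 0.510). Ptcra had 47 and 75 UMIs, a ratio of 0.900, and Lfng 182 and 340, a ratio of 1.05. Hes6, a relative of Hes1 that antagonises it, was at 146.0 and 134.4 CPM.

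**Figure D3:**
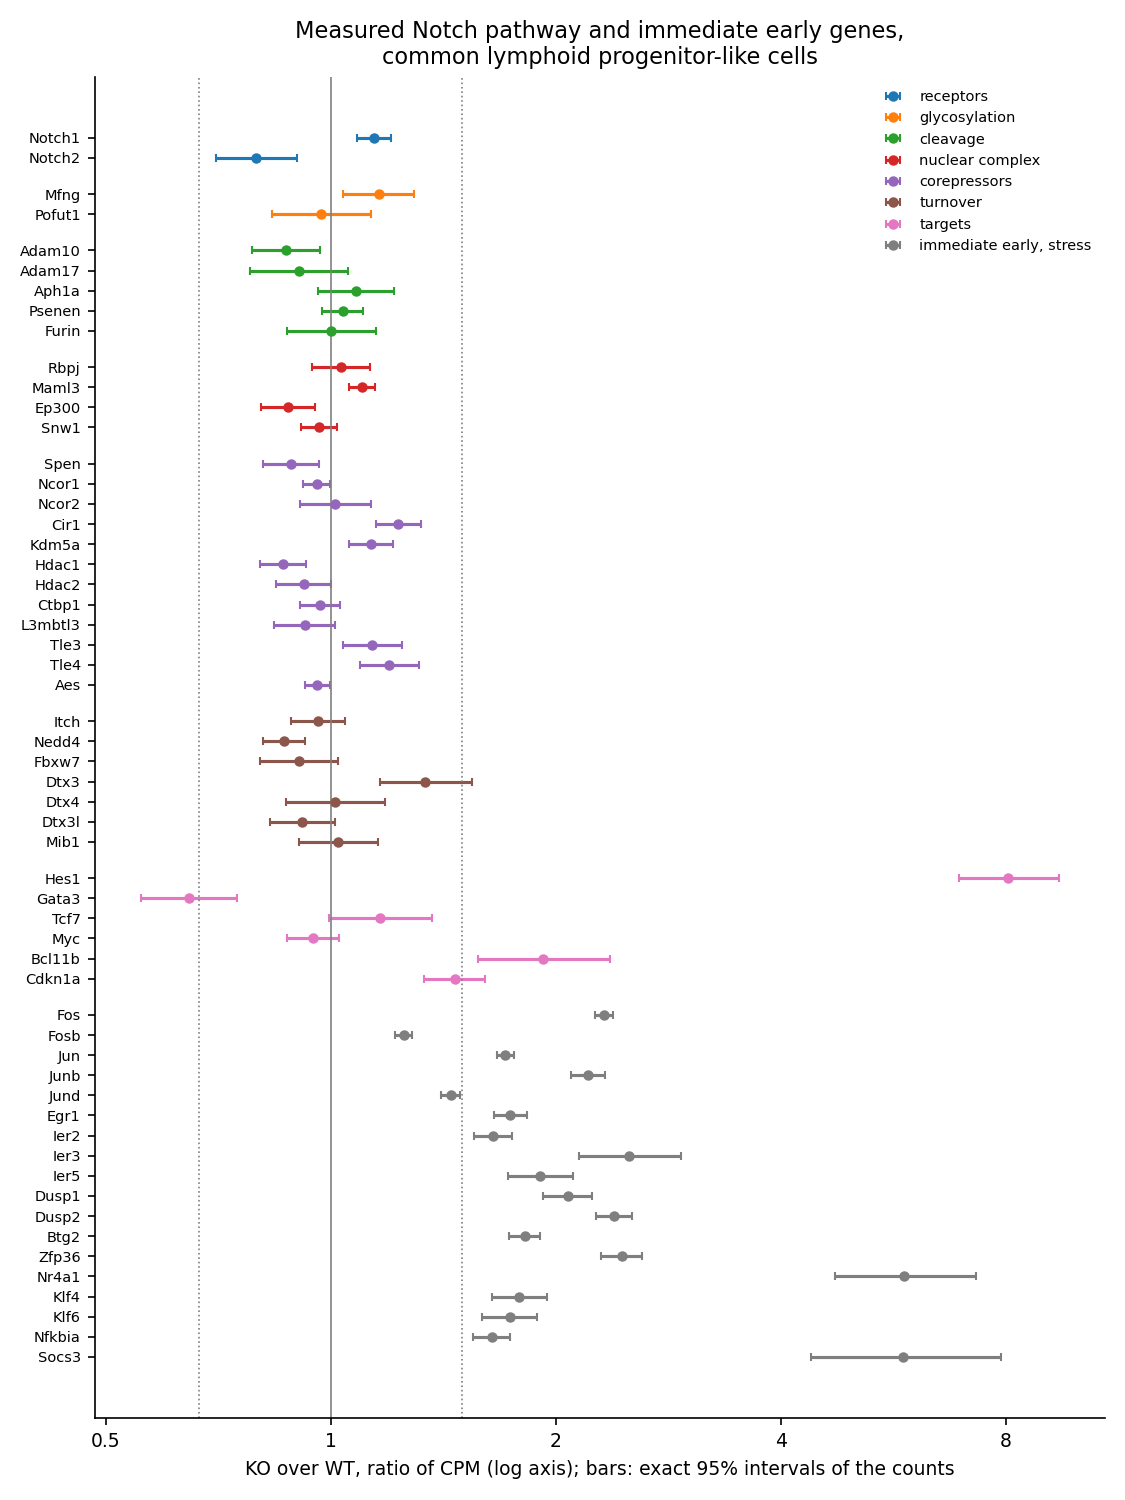
Ratio of CPM, KO over WT (log axis), in common lymphoid progenitor-like cells for measured Notch pathway genes by role (1 is not shown) and for the measured immediate early and stress genes, with exact 95% intervals; solid line at 1, dotted lines at 1.5-fold. Hes1 lies at 8.06 while the receptors, cleavage genes, nuclear partners and corepressors lie between the dotted lines, and most immediate early genes lie to the right of them.

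Immediate early genes, which are switched on within minutes by growth factor, cytokine or receptor signals and by tissue dissociation, moved in the direction of Hes1. Of 25 genes on that list 18 were measured, with a median log2 ratio of 0.85. Of these, 16 passed the size rule as higher in KO and 0 as lower, against 1.28% and 1.08% of all measured genes. Fos, a component of the AP-1 transcription factor, was at 537.8 CPM in WT and 1247 in KO, 2.32-fold higher (2.25 to 2.39). Jun was 1.71-fold, Egr1 1.74-fold and Ier2 1.65-fold higher. The heat shock gene Hspa1a, at 49 and 251 UMIs, was not measured, and its reads can be shared with the near-identical Hspa1b. The largest folds among measured genes of the list were those of Nr4a1, an orphan nuclear receptor, at 8.61 and 50.2 CPM (5.84-fold, 4.72 to 7.28), and Socs3, a feedback inhibitor of cytokine signalling, at 4.80 and 28.0 CPM (5.82-fold, 4.39 to 7.87). They were the second and the third largest of all measured genes after Hes1. Summed over the list, the level was 3905 CPM in WT and 6910 in KO, and it was higher in KO in all 7 classes. In each class 9 to 16 of the 15 to 21 measured genes of the list passed the size rule as higher and 0 as lower. Of all measured genes 1.28% to 3.85% passed as higher and 1.08% to 4.7% as lower, by class. Gm42418, a locus that overlaps ribosomal RNA sequence, was also higher in KO progenitor-like cells, at 6073 and 18556 CPM (3.06-fold), and so was AY036118, at 201.6 and 285.0 CPM (1.41-fold). Their part in the immediate early and Hes1 differences was not tested.

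Whether Hes1 went with Fos was asked cell by cell within each library. Progenitor-like cells were grouped by their Fos UMIs after thinning. In KO Hes1 was higher at each step: 66.2 CPM (59.3 to 73.6) with 0 Fos UMIs, 122.9 (113.1 to 133.3) with 1, 130.6 (120.9 to 140.9) with 2 to 3 and 218.5 (205.3 to 232.4) with 4 or more. The intervals of the 2 middle groups overlapped. In WT the values were 12.1, 23.0, 14.6 and 26.3 CPM in the same order, with no steady order. Between libraries Hes1 was higher in KO in all 4 groups, by 5.49-fold (4.14 to 7.38), 5.35-fold, 8.96-fold and 8.30-fold, so the difference was present among cells without a thinned Fos UMI. In ILC2-like cells without a thinned Fos UMI, by contrast, Hes1 in KO was 0.846 of WT (0.425 to 1.56, 13 KO UMIs). In such CD3-expressing cells only 2 WT and 1 KO Hes1 UMIs were left. A thinned count of 0 does not mean a cell without Fos. At full depth 1235 of the 1287 KO progenitor-like cells had a Fos UMI.

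**Figure D4:**
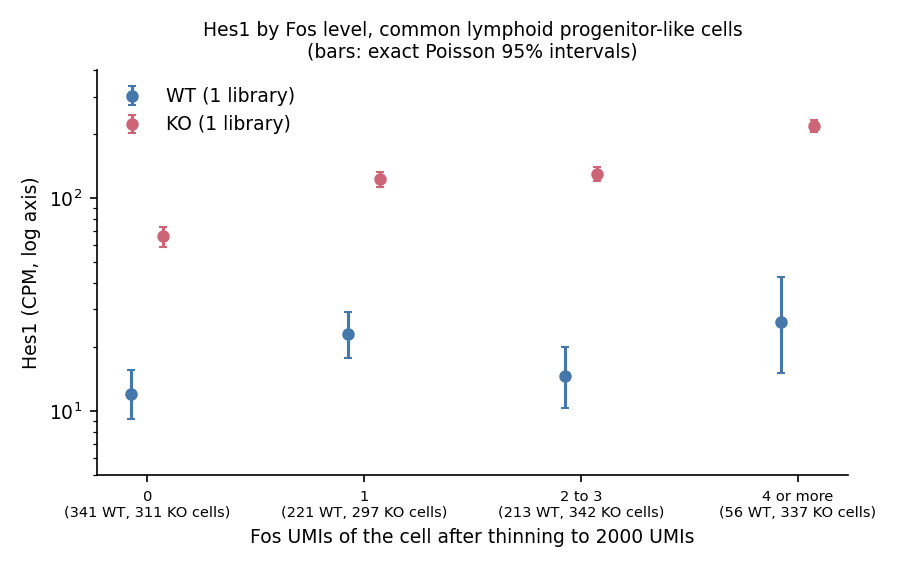
Hes1 level (CPM, log axis) in common lymphoid progenitor-like cells grouped by Fos UMIs after thinning to 2000 UMIs, WT in blue and KO in red, with exact Poisson 95% intervals. KO points climb from 66.2 to 218.5 CPM, and WT points stay between 12.1 and 26.3 CPM.

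Thinned progenitor-like cells with a Hes1 UMI, 27 in WT and 210 in KO, were then set against the 804 and 1077 without one. Over 4930 genes, 1.87% in WT and 2.45% in KO passed the size rule as higher with Hes1, and 0.669% and 3.35% as lower. In KO the cells with Hes1 had 3.60 Fos UMIs on average and those without 2.51, a ratio of 1.44 (1.32 to 1.56). The standard deviations between cells were 3.71 and 3.06, a spread that the intervals of these ratios do not cover. Jun had a ratio of 1.44, Egr1 1.52, Ier2 1.58 and Junb 1.69. Nr4a1 had a ratio of 3.18 (2.18 to 4.60) and Hspa1a of 0.986 (0.296 to 2.61). Of 15 immediate early genes measured 5 passed the size rule as higher and 0 as lower, and the list as a whole had a ratio of 1.41 (1.37 to 1.46). In WT, with 27 cells, Fos had a ratio of 0.893 (0.595 to 1.29), Jun 1.60 (1.23 to 2.03) and the list 1.19 (1.06 to 1.34), and 1 of the 15 genes, Jun, passed. A difference between the libraries in these ratios was not tested.

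Pathway genes were compared in the same cells. Notch1 had a ratio of 1.15 in WT (0.589 to 2.04) and 1.14 in KO (0.914 to 1.42), Rbpj 0.784 (0.159 to 2.35) and 1.06 (0.700 to 1.56), and Notch2 0.827 (0.168 to 2.48) and 1.49 (0.798 to 2.64). In KO cells without Ly6d the Notch2 ratio was 3.11 (1.21 to 7.15), from 8 and 24 UMIs, and in those with it 0.939 (0.373 to 2.09). Of 32 measured genes of the pathway without Hes1, 0 in WT and 1 in KO (Mfng) passed as higher, and the median ratio was 0.891 and 1.01. Nrarp had 2 UMIs in the KO cells with Hes1 and 8 in those without. Summed over 13 Notch targets that no class marker list holds, the ratio was 1.67 in WT (0.939 to 2.75) and 1.18 in KO (0.951 to 1.46), which came mostly from Myc, Cdkn1a and Bcl11b. Without Myc and Cdkn1a the sum had a ratio of 2.15 in WT (0.768 to 4.89), from 6 UMIs in the cells with Hes1, and of 1.54 in KO (1.03 to 2.25). Bcl11b alone had a ratio of 2.03 in KO (1.20 to 3.35), while 3.33% of the cells with Hes1 and 2.79% of those without had a Bcl11b UMI. For the sum without Myc and Cdkn1a these shares were 8.57% and 7.06% in KO. Both ratios thus rest on few cells, and the intervals do not cover the spread between cells. The target list varied with the thinning. In KO it gave 1.30 (1.04 to 1.62) in a second random draw, 2.10 with cells thinned to 1000 UMIs and 1.38 with no thinning, while Fos gave 1.40, 1.32 and 1.35. In WT the second draw gave 0.938 (0.494 to 1.63) for the target list. Fos and the target list therefore could not be ranked by how closely they went with Hes1, and in KO the Notch1 and Rbpj intervals included 1 in both draws.

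Cells with Hes1 differed in other ways too. The Ebf1 ratio was 2.27 in WT (1.07 to 4.31) and 1.98 in KO (1.62 to 2.42). That of Ly6d was 1.11 and 1.46. The Ebf1 ratio in KO was 1.46 (1.18 to 1.81) in the second draw, and in WT it was below 1 without cycling cells (0.526, 0.0131 to 3.07). The cycling list had a ratio of 0.386 in KO (0.319 to 0.463), with 4 of 4 measured genes past the rule as lower, and of 0.917 in WT (0.699 to 1.18). Among cells without a thinned cycling marker the KO Fos ratio was 1.43 and that of the target list 1.19.

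The same ratios were taken in 2 other classes, ILC precursor-like and ILC2-like cells. In ILC precursor-like cells the immediate early list was lower in cells with Hes1, with ratios of 0.748 in WT (0.667 to 0.838) and 0.903 in KO (0.866 to 0.941). Fos had ratios of 0.875 (0.632 to 1.19) and 1.08 (0.968 to 1.20). The target list had a ratio of 0.869 in WT (0.511 to 1.41) and 1.67 in KO (1.41 to 1.98), with Cdkn1a at 3.89 and Bcl11b at 1.56 in KO. Rbpj had 1.77 in KO (1.20 to 2.57) but 0.895 in the second draw, so no direction is read from it. In ILC2-like cells Fos had ratios of 1.25 in WT (1.10 to 1.41; 1.08 in the second draw) and 1.05 in KO (0.961 to 1.15). Nr4a1 had 3.18 in WT (1.07 to 7.93) and 1.19 in KO (0.487 to 2.52). The immediate early list had 1.11 in WT (1.06 to 1.16; 0.989 in the second draw) and 1.04 in KO (1.01 to 1.08; 0.973 with no thinning). The target list had 0.913 and 0.850, both with intervals that include 1.

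**Figure D5:**
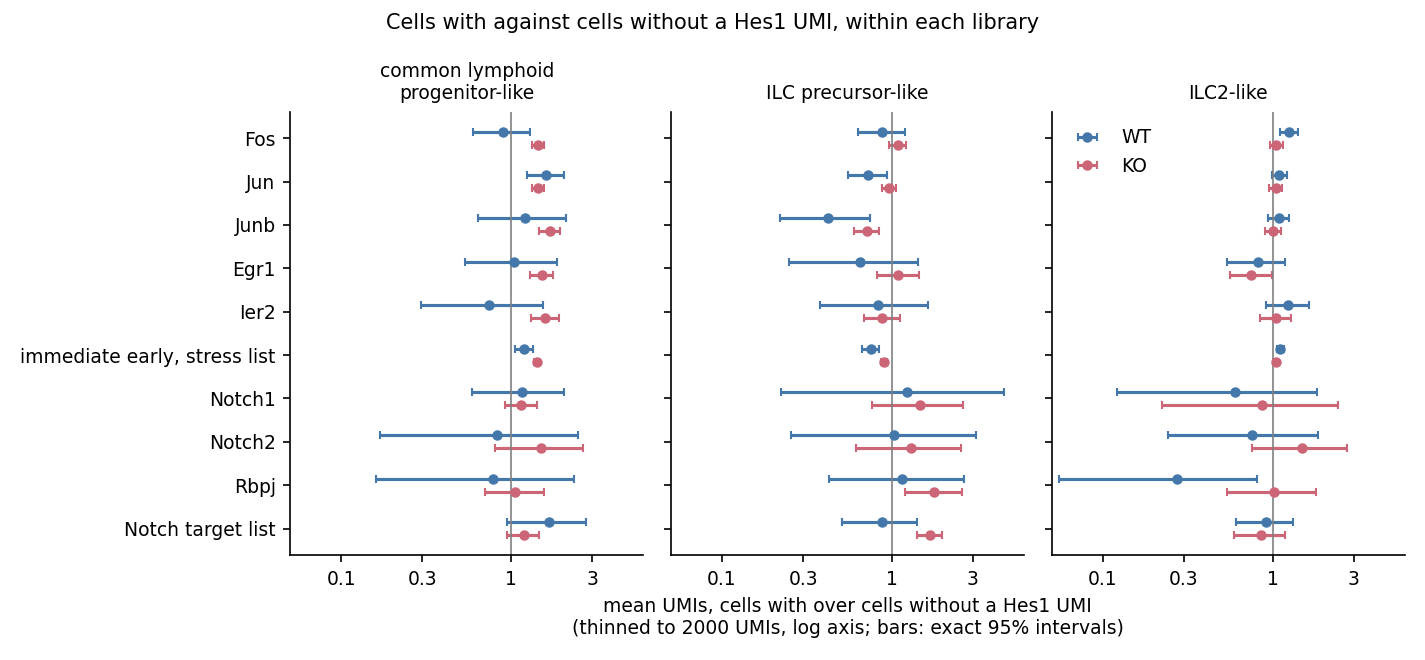
Mean UMIs in cells with over cells without a Hes1 UMI (log axis, cells thinned to 2000 UMIs) for 3 classes, WT in blue and KO in red, with exact 95% intervals. In KO common lymphoid progenitor-like cells Fos, Jun, Junb, Egr1 and Ier2 lie right of 1, while the intervals of Notch1, Notch2 and Rbpj include it.

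Genes were also ranked by Spearman correlation with Hes1 over thinned progenitor-like cells (831 in WT, 1287 in KO, 4825 genes), as a description of sparse counts that share a library. All correlations were weak. The 10 genes with the highest mean of both libraries were Ebf1 (0.10 in WT and 0.17 in KO), Crip1, Jun (0.10 and 0.15), Rcsd1, Pkig, Ly6d, Wdr83, Dusp2, Junb and Dusp5, and Dusp2, Junb and Jun are immediate early genes. Only 4 of the 10 were kept in a second thinning draw, where Ebf1 ranked 17 and Jun 9. Fos ranked 105, at -0.02 in WT and 0.13 in KO, and ranked 11 in the second draw, so the order rests on the draw. Notch1 ranked 1026 and 779 in the 2 draws. The median over 15 immediate early genes was 0.02 in WT and 0.10 in KO, and 11 and 15 of them lay above 0. Over 32 Notch pathway genes the medians were -0.0009 and 0.0005, and 16 lay above 0 in each library. Of all 4825 genes 2299 in WT and 2393 in KO lay above 0. Across the 14 sums of a class and a library Hes1 was most like Tmem63b (Pearson r = 0.89), Ttc19 (0.86), Epc1 (0.86), Tox4 (0.85) and Zfp644 (0.83) among 8338 genes. Rbpj (0.57) and Fos (0.55) had similar values there, and those of Notch2 (-0.03), Notch1 (-0.16) and Dtx1 (-0.24) were near or below 0.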

How the data were processed

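The deposited values are raw counts of UMIs per gene and barcode from 10x Genomics 3' v3.1 libraries, written by Cell Ranger (software version 3.1.0 per the file headers) on mm10 per the submitters' processing notes. These notes also name Seurat without saying what it was used for. Sequencing aimed at 20000 read pairs for each of 10000 cells per the labels' protocols, on a NextSeq or a NovaSeq instrument that is not told apart by library. Whole UMI sums were used throughout, with no normalization beyond CPM. The 2 libraries held 47883132 (WT) and 52137780 (KO) UMIs, and the mitochondrial limit removed 18.4% and 23.1% of barcodes with 1000 genes. Scrublet (scanpy 1.11.5) called 0 WT cells, a failed call, and 48 KO cells, so no doublets were removed and the top 8% of scores were dropped as an alternative. Thinning drew 2000 UMIs per cell without replacement (seed fixed). Ratio intervals were run on counts simulated with Poisson error, which is the error they assume. That run does not check them for spread between cells. Python 3.11.15, numpy 2.4.6 and edgeR 4.0.16 (TMM factors only) were used.

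The members and gene lists were chosen with earlier results of these data known, and the rule that assigns cells to classes was set after the values were seen. Genes named were the 5 members, the up to 4 measured genes per role list with the largest difference in common lymphoid progenitor-like cells and those at 0 (1 gene of the cleavage list, part of the counts, is not reported here), 5 stress genes (Fos, Jun, Egr1, Ier2, Hspa1a), and the 10 and 5 genes most like Hes1 over cells and over classes. Nr4a1, Socs3, Junb, Dusp2, Ebf1, Ly6d, Hes6, Mfng, Gm42418, AY036118 and the less direct targets given by UMIs were named after their values were seen. Promoter windows came from RefSeq (GRCm38.p6) and gene positions from an annotation of GRCm38; the release the authors used is not given.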

Additional observations from a re-analysis of the deposited data

Results flagged for a closer look

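Barcodes left out by the filters on genes and mitochondrial UMIs also carried Hes1, at 70.5 CPM in the 4133 KO barcodes (672 UMIs) and at 37.5 CPM in the 17003 WT barcodes (702 UMIs). They stand out because they enter no comparison and their KO level lies above that of the WT library. The kept cells were at 120.7 CPM in KO and 36.4 CPM in WT. What these barcodes hold was not tested.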

How the results depend on the processing

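The Hes1 fold in common lymphoid progenitor-like cells was above 1 under all 16 alternatives, from 5.40 to 9.57, and it kept to the interval of the reported 8.06 (6.93 to 9.41) in 10 of them. It was 5.84 in joint clusters, 5.49 in cells without a thinned Fos UMI, 5.40 in cells without a cycling marker, 9.57 in those without a thinned one, 6.70 with cells weighted equally and 6.76 in cells of 8000 to 16000 UMIs. This bin was chosen after seeing the data, as were the thinned cycling split, leaving out each gene's top cell (8.57), a second thinning draw, leaving out barcodes found in both libraries (7.89) and the per-cell ratios without cycling cells. Hes1 ranked first by fold under 8 of 11 alternatives. It had rank 2 when every cell was thinned, rank 3 without a thinned Fos UMI and rank 6 without cycling cells. Pairs of a member and a class past the size rule numbered 5 higher and 3 lower. They were 2 higher with every cell thinned, 1 higher and 0 lower without a thinned Fos UMI, and 3 higher and 1 lower without cycling cells. The lower pairs were 0 at 5% mitochondrial UMIs, 1 with TMM factors and 1 (Notch2 in ILC precursor-like cells) without each gene's top cell. Genes past the rule in progenitor-like cells, 82 higher and 69 lower, became 172 and 307 with every cell thinned, 173 and 320 without cycling cells, and 140 lower in joint clusters. Cells weighted equally give no counts, so that alternative has no such number. The KO Fos ratio was 1.32 thinned to 1000 UMIs, 1.27 in joint clusters, 1.63 without Ly6d and 1.40 in the second draw; the WT Fos ratio was 1.35 without Ly6d. The target list ratio was 2.10 thinned to 1000 UMIs and 1.30 in the second draw in KO, and 0.792 at 5% mitochondrial UMIs, 0.738 in joint clusters and 0.938 in the second draw in WT. Of the 10 genes most like Hes1, 3 were kept with cells thinned to 1000 UMIs and 4 in the second draw. Results whose reported interval included 1 could also cross 1, as the WT Fos and WT target list ratios did. The turns that follow are those of results whose interval left out 1. Directions turned for Hes1 in cells without a thinned Fos UMI, in the ILC2-like (0.846) and CD3-expressing classes (0.449). They also turned for Notch1 in progenitor-like cells of 8000 to 16000 UMIs (0.967) and for the WT immediate early list in joint clusters (0.954). The same held for WT Ebf1 in joint clusters (0.882) and without cycling cells (0.526), and for KO Rbpj in ILC precursor-like cells in the second draw (0.895). In ILC2-like cells the immediate early list turned in WT in the second draw (0.989) and in KO without thinning (0.973). The causes were not tested. No paired analysis was possible because each genotype has 1 library. Depth limits Dtx1, the ligands and the Hey genes, which were below the measuring limit in progenitor-like cells, and the WT per-cell ratios, which rest on 27 cells.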
